A study of Mus musculus with 11 samples.

Results

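The average fibrosis effect is the mean of the change in the kidney (fibrotic minus healthy) and the change in the lung (fibrotic minus healthy), estimated for each gene in 1 linear model over all 11 arrays of the series. A gene is called common here when its average effect passed a limma adjusted p of 0.05 and the fitted change had the same sign in each organ. Of 12865 genes tested, 3876 were common, 2284 higher (17.8% of the genes tested) and 1592 lower (12.4%) in the fibrotic organs. Values below are log2 levels of normalised bead-array intensity or log2 differences between them, so a difference of 1 is a doubling; summed levels of lists are on the linear intensity scale.

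Fibrotic kidneys (n = 2) came from BALB/C mice that had undergone unilateral ureter obstruction, UUO, in which the ureter of a single kidney is tied so that urine backs up and the kidney scars, and healthy kidneys (n = 3) from mice described only as healthy. Fibrotic lungs (n = 3) came from BALB/C mice given bleomycin, a DNA-damaging drug, into the trachea, and healthy lungs (n = 3) came, going by the identifiers in the titles, from the mice that gave the healthy kidneys, although the descriptions number the mouse of every array separately. Every animal is labelled female and adult, no mutant allele or transgene is named, and the time between injury and collection is not given in the sources used here. No sham-operated or vehicle-treated animals were analysed here, so surgery or instillation and the injury itself cannot be told apart. RNA was taken from whole organ tissue, in which fewer cells of a type and less RNA per cell cannot be told apart.

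Fibrosis is the replacement of working tissue by scar. After injury, epithelial cells release alarm and growth signals, monocytes are drawn in by chemokines and become macrophages, and transforming growth factor beta (TGF-beta), set free from its latent form, drives fibroblasts to become contractile myofibroblasts that lay down and crosslink collagen. In kidney this scarring accompanies loss of the fatty-acid-burning proximal tubule, and in lung it follows damage to the alveolar epithelium.

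Between 17036 and 21504 probes per array were above background, and the correlation between arrays within a group ran from r = 0.935 to 0.988. The organs carried their markers: Umod, a thick ascending limb protein, had a level of 14.37 to 14.58 on all kidney arrays, and Sftpc, surfactant protein C, of 13.51 to 14.15 on all lung arrays. Some arrays stood apart. Xist, the RNA that silences the inactive X chromosome, had levels of 10.83 and 10.56 in fibrotic kidneys, against 4.48, 4.41 and 4.74 in healthy kidneys, and of 5.61, 4.37 and 9.03 in fibrotic lungs, against 4.38, 4.33 and 4.33 in healthy lungs. Eif2s3y, a Y-chromosome gene, gave the mirror image, 4.42 and 4.40 in fibrotic kidneys, against 9.41, 9.28 and 9.06 in healthy kidneys. Levels were 9.78, 9.76 and 4.44 in fibrotic lungs, against 9.41, 9.75 and 9.45 in healthy lungs. Thus both fibrotic kidneys and fibrotic lung replicate 3 had the pattern of females and all healthy arrays that of males, although every animal is labelled female; in kidney this difference and fibrosis cannot be told apart. Of 15 androgen-dependent kidney genes, 10 were common and lower (kidney median -4.70, lung median -0.76, and -0.40 in lung with genes at background set to their bound). In kidney 13 of the 15 were lower past the test (15.6% over all genes), and in lung 2 (18.9% over all genes). The list had a summed level of 20200 to 26400 in fibrotic kidneys, against 121000 to 128000 in healthy kidneys. In lung the sum was 4540 to 5460 in fibrotic lungs, against 8710, 11400 and 55200 in healthy lungs, the highest on replicate 3. Scgb1a1, the club cell secretory protein of the airway, had levels of 12.48 and 11.35 in fibrotic kidneys, against 4.52, 4.50 and 4.37 in healthy kidneys, and Sftpc of 9.23 and 7.75 in fibrotic kidneys, against 4.59, 4.57 and 4.38 in healthy kidneys, so the fibrotic kidney arrays held airway and alveolar transcripts. Healthy lung replicate 3 held liver transcripts: Apoa1, an apolipoprotein, had levels of 4.51, 4.52 and 4.96 in fibrotic lungs, against 4.54, 4.51 and 13.94 in healthy lungs, and the summed level of 16 liver genes was 213000 on that array, against 14500 and 16300 on the other healthy lungs. Umod was also at 9.19 in fibrotic lung replicate 1.

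**Figure D1:**
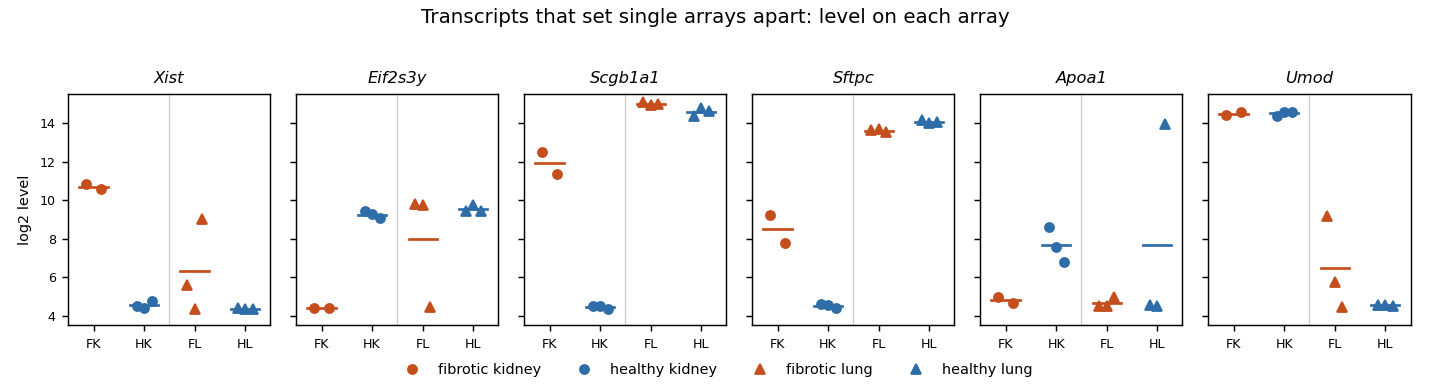
Log2 level (y axis, 1 point per array, bars are group means) of 6 transcripts in fibrotic kidney (FK, n = 2), healthy kidney (HK, n = 3), fibrotic lung (FL, n = 3) and healthy lung (HL, n = 3). Xist is high and Eif2s3y low on both fibrotic kidneys and on 1 fibrotic lung, Scgb1a1 and Sftpc are raised in fibrotic over healthy kidneys, and Apoa1 reaches 13.94 on 1 healthy lung.

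The average effect itself called 2944 genes higher (22.9% of those tested) and 2228 lower (17.3%), and for 1296 of these the fitted organ changes had different signs. Tested alone, the kidney had 23.2% of genes higher and 15.6% lower, and the lung 18.9% in each direction. Requiring that each organ pass its own test with the same sign left 710 genes higher (5.52%) and 357 lower (2.77%), while 1077 genes (8.37%) passed in each organ with opposite signs. The arrays of the fibrotic group did not overlap those of the healthy group, in either organ, for 1294 common higher genes (10.1% of genes tested) and 766 common lower ones (5.95%). A shared sign did not mean a shared size: the kidney change and the lung change differed for 5150 genes (40.0%), 1304 of them common. Among the common higher genes whose changes differed, 551 changed more in kidney and 238 more in lung. Among the lower ones, 278 changed more in kidney and 237 more in lung. The balance of rises and falls depended on the scaling. Common genes were 58.9% higher with quantile normalisation, 84.2% when arrays were only set to a common median, and 74.3% from the processed intensities of the authors. The median average change over all genes was 0.25 and 0.12 under those scalings, against 0.02 here. For 532 of the common higher genes no healthy kidney was above background, so the fitted kidney change and the average are values at the array's floor and not bounds. Of the common higher genes, 159 were above background on no healthy array of either organ. These passed the detection filter only through fibrotic arrays, so their p-values are descriptive. Bounds are given as "at least" for the genes named, except the markers that set arrays apart, for which no bound is printed. Genes that stand below as exceptions within their list, and the marker, B cell and clock output genes, were chosen after their values were seen, among them Apoa1, Col4a3, Col4a4, Fbln1, Mfap2, P4ha1, Pcolce2, Timp2, Timp3, Thy1, Cxcl12, Krt20, Sox4, Lgals8, Ccnd1, Ccne1, Ppara, Ppargc1a, Slc2a1, Pkm, Cdk1, Top2a, Tef and Ciart.

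The 12 largest rises shared by both organs, ranked by the smaller of the organ changes among common genes whose arrays did not overlap, ran from Timp1 to Retnla. Timp1, a secreted inhibitor of matrix metalloproteinases, had levels of 9.51 and 13.75 in fibrotic kidneys, against 4.33, 4.44 and 5.06 in healthy kidneys. Levels were 12.91, 13.65 and 13.77 in fibrotic lungs, against 7.52, 8.19 and 7.17 in healthy lungs. All fibrotic arrays were above all healthy arrays of their organ, and no healthy kidney was above background. Timp1 was thus at least 79.3-fold higher in fibrotic kidneys and 56.6-fold higher in fibrotic lungs, with an average effect of 6.42 ± 0.62 (SE; limma adjusted p = 5.2e-05). The fibrotic kidneys lay far apart, and the average was 7.46 without replicate 1 and 5.37 without replicate 2. Tnc, tenascin C, a matrix glycoprotein of wounds, had levels of 8.36 and 11.54 in fibrotic kidneys, against 4.77, 4.38 and 6.67 in healthy kidneys. Levels were 11.92, 11.82 and 11.92 in fibrotic lungs, against 5.89, 5.85 and 6.26 in healthy lungs. Its average effect of 5.28 ± 0.55 (limma adjusted p = 8.5e-05) became 6.06 and 4.49 without fibrotic kidney replicate 1 and 2. Adamts4, an aggrecan-cleaving protease, was above background on no healthy array of either organ, so it entered the test only through its fibrotic arrays. Its rise was at least 21.4-fold in kidney (7.82 and 11.66, against 4.97, 4.51 and 4.34 in healthy kidneys) and at least 19.5-fold in lung (8.84, 9.43 and 9.51, against 4.51, 4.78 and 4.54 in healthy lungs; limma adjusted p = 0.00012). Its fitted average of 4.89 was 5.84 and 3.94 without fibrotic kidney replicate 1 and 2.

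Lox, lysyl oxidase, which starts the crosslinking of collagen and elastin, had levels of 8.77 and 10.12 in fibrotic kidneys, against 4.60, 4.43 and 4.67 in healthy kidneys. Levels were 12.48, 12.46 and 12.57 in fibrotic lungs, against 9.01, 8.98 and 8.37 in healthy lungs. Healthy lungs already expressed it and healthy kidneys were at background, so the rise was at least 17.5-fold in kidney and 13.2-fold in lung (average 4.30 ± 0.22; limma adjusted p = 2.2e-06). Ccl7, a monocyte-attracting chemokine, had levels of 7.77 and 9.20 in fibrotic kidneys, against 4.40, 4.49 and 4.37 in healthy kidneys. Levels were 10.24, 10.25 and 10.76 in fibrotic lungs, against 4.96, 5.20 and 4.91 in healthy lungs. It was above background in 1 healthy lung and no healthy kidney. Its rise in kidney was at least 8.97-fold (fitted average 4.73 ± 0.23; limma adjusted p = 1.7e-06). Ccl12, another ligand of the monocyte receptor CCR2 in mouse, had levels of 8.90 and 8.94 in fibrotic kidneys, against 4.40, 4.75 and 4.54 in healthy kidneys. Levels were 9.03, 10.65 and 10.38 in fibrotic lungs, against 6.48, 6.60 and 6.31 in healthy lungs. Its fibrotic kidneys differed by 0.04, and the rise there was at least 12.1-fold, with an average of 3.95 ± 0.26 (limma adjusted p = 5.9e-06). Ms4a6d, a membrane protein of macrophages, rose by 4.08 ± 0.24 on average (limma adjusted p = 3.5e-06), to 9.71 and 11.20 in fibrotic kidneys, against 5.91, 5.89 and 5.87 in healthy kidneys, and to 12.15, 12 and 12.53 in fibrotic lungs, against 8.39, 8.94 and 8.56 in healthy lungs.

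Cldn4, a tight-junction claudin, had levels of 12.24 and 13.06 in fibrotic kidneys, against 8.36, 7.98 and 9.08 in healthy kidneys. Levels were 10.92, 11.38 and 10.60 in fibrotic lungs, against 6.54, 7.04 and 5.28 in healthy lungs. It was above background on every array of the study, and rose by 4.18 in kidney and 4.68 in lung (average 4.43 ± 0.34; limma adjusted p = 1.5e-05). Lcn2, neutrophil gelatinase-associated lipocalin, an iron-binding protein released by injured epithelium and neutrophils, had levels of 11.30 and 14.83 in fibrotic kidneys, against 5.36, 5.75 and 6.66 in healthy kidneys. Levels were 13.18, 13.72 and 13.81 in fibrotic lungs, against 9.61, 10.91 and 9.64 in healthy lungs. Its rise was larger in kidney (7.14) than in lung (3.51; limma adjusted p of the difference = 0.026), and its average of 5.32 was 6.20 and 4.44 without fibrotic kidney replicate 1 and 2. Cdkn1a, the cell cycle inhibitor p21 that p53 induces after DNA damage, had levels of 8.82 and 10.94 in fibrotic kidneys, against 6.24, 5.99 and 6.98 in healthy kidneys. Levels were 12.73, 12.94 and 12.47 in fibrotic lungs, against 9.08, 9.18 and 8.81 in healthy lungs. Its rise was 3.47 in the obstructed kidneys and 3.69 in the bleomycin lungs (average 3.58 ± 0.34; limma adjusted p = 4.7e-05). Serpina3n, an acute-phase protease inhibitor, rose by 3.88 ± 0.44 (limma adjusted p = 0.00014), with 4.58 and 3.16 without fibrotic kidney replicate 1 and 2. Retnla, a secreted product of alternatively activated macrophages, had levels of 9.71 and 7.24 in fibrotic kidneys, against 6.11, 4.76 and 5.17 in healthy kidneys. Levels were 13, 12.78 and 13.32 in fibrotic lungs, against 8.30, 9.67 and 7.68 in healthy lungs. It rose by 3.81 ± 0.49 (limma adjusted p = 0.00026), with 3.18 and 4.43 without fibrotic kidney replicate 1 and 2. The ranking ended at Retnla, whose smaller change was 3.13, and the next gene was Ch25h, an oxysterol-making enzyme, at 3.08.

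**Figure D2:**
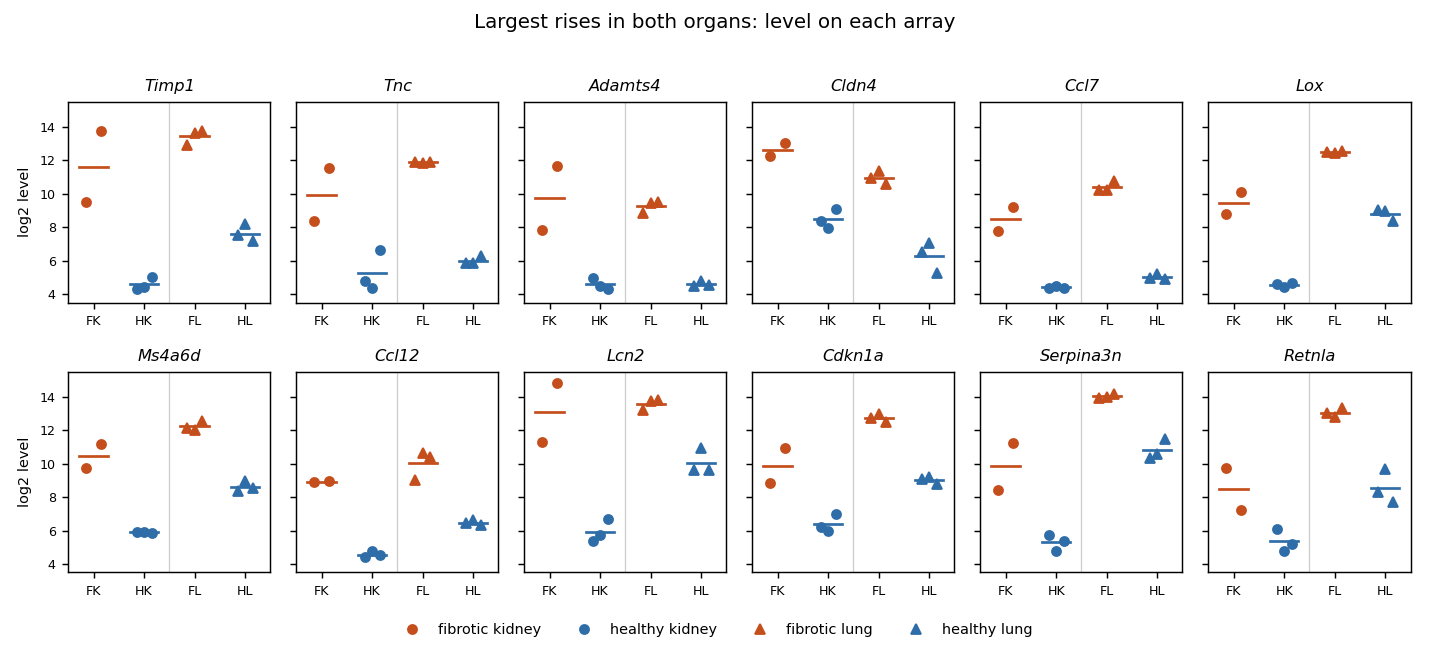
Log2 level (y axis, 1 point per array, bars are group means) of the 12 genes with the largest shared rise in fibrotic kidney (FK), healthy kidney (HK), fibrotic lung (FL) and healthy lung (HL). Fibrotic points lie above healthy points of the same organ in every panel, and the 2 fibrotic kidneys are widest apart for Timp1 (9.51 and 13.75).

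Many matrix genes were common and higher, and fewer passed in each organ. Of 14 fibrillar and interstitial collagens tested, 10 were common and higher and 0 lower, 7 passing in each organ, with a median change of 1.93 in kidney and 0.92 in lung, beside 0.10 and -0.03 over all genes. Col1a1, a chain of type I collagen, had levels of 9.02 and 9.71 in fibrotic kidneys, against 4.75, 4.61 and 6.14 in healthy kidneys. Levels were 11.50, 10.37 and 11.62 in fibrotic lungs, against 8.10, 8.15 and 8.05 in healthy lungs. It rose by 3.63 ± 0.32 on average (limma adjusted p = 3.3e-05), without overlap in either organ. Col1a2, the partner chain in the same type I fibre, had levels of 5.54 and 5.71 in fibrotic kidneys, against 5.09, 5.01 and 5.29 in healthy kidneys. Levels were 6.56, 5.70 and 6.50 in fibrotic lungs, against 5.75, 5.55 and 5.23 in healthy lungs. The lungs overlapped, and its average of 0.62 (limma adjusted p = 0.018) had an adjusted p of 0.061 without fibrotic kidney replicate 2 and of 0.068 without the lung arrays that stood apart. Only 1 healthy kidney was above background for Col1a2, and all kidney levels were close to the lowest signals above background there (5.1 to 5.4). The size of its rise in kidney is thus not established. Col3a1, the type III chain of loose scar, had levels of 7.94 and 8.64 in fibrotic kidneys, against 4.85, 4.70 and 4.80 in healthy kidneys. Levels were 8.88, 8.99 and 9.76 in fibrotic lungs, against 6.97, 7.13 and 6.80 in healthy lungs, which made it at least 7.83-fold higher in fibrotic kidneys and 4.73-fold higher in fibrotic lungs (limma adjusted p = 5.7e-06). Other collagens had unequal fitted changes in the organs. Col8a1, a short-chain collagen of vessel walls, rose by 4.03 in kidney and 1.08 in lung (limma adjusted p of the difference = 0.00026). Col5a2, which sets fibril diameter, rose by 3.11 in lung, where 2 of the healthy arrays were above background, and its kidney rise was at least 1.37-fold. No healthy kidney was above background, so a smaller rise in kidney is not established.

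In the basement membrane, the sheet beneath epithelium and endothelium, 11 of 18 genes tested were common and higher and 0 lower, 6 passing in each organ. The median was 1.54 in kidney and 0.67 in lung, and 1.29 and 0.65 with genes at background set to their bound. The main type IV collagen chains both rose. Col4a1 had levels of 13.45 and 13.96 in fibrotic kidneys, against 10.76, 10.67 and 10.89 in healthy kidneys. Levels were 14.04, 13.99 and 13.99 in fibrotic lungs, against 12.69, 12.52 and 12.83 in healthy lungs, and Col4a2 rose by 2.41 and 1.36. The average was 2.13 ± 0.12 for Col4a1 (limma adjusted p = 2.5e-06) and 1.89 ± 0.12 for Col4a2 (limma adjusted p = 4.3e-06). The kidney-glomerular and alveolar chain Col4a4 instead was -1.02 in kidney and 0.68 in lung, each past the test, and Col4a3 was -1.52 and 0.73. Lamc1, the laminin gamma chain of most basement membranes, rose by 1.44 ± 0.13 (limma adjusted p = 3.4e-05).

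Among matrix glycoproteins and proteoglycans, 13 of 20 were common and higher and 0 lower, while 10 passed higher in each organ (5.52% over all genes). In lung 3 were lower past the test (18.9% over all genes). The median was 1.88 in kidney and 0.87 in lung, and 1.82 in kidney with genes at background set to their bound. Fn1, fibronectin, the provisional matrix on which collagen is laid, had levels of 9.39 and 10.28 in fibrotic kidneys, against 6.72, 6.73 and 6.96 in healthy kidneys. Levels were 12.89, 12.07 and 12.94 in fibrotic lungs, against 9.30, 9.32 and 10.07 in healthy lungs. Its changes were 3.03 and 3.07, an organ difference of -0.04 ± 0.46 (SE). Eln, elastin, had levels of 7.19 and 6.59 in fibrotic kidneys, against 5.14, 4.45 and 5.26 in healthy kidneys. Levels were 13.34, 12.59 and 13.23 in fibrotic lungs, against 8.80, 8.74 and 8.48 in healthy lungs, a fitted rise larger in lung (limma adjusted p of the difference = 0.0011). Only 1 healthy kidney was above background for Eln, so a smaller rise in kidney is not established. Sparc, a collagen-binding glycoprotein, ran the other way, at 2.42 in kidney and 0.57 in lung (limma adjusted p of the difference = 0.00021), from healthy lungs that already had 13.41, 13.21 and 13.52. Fbln1 and Mfap2, proteins of elastic fibres and microfibrils, passed in each organ with opposite signs, 1.82 and 2.09 in kidney and -1.34 and -1.08 in lung.

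Enzymes that modify collagen had 11 of 19 common and higher and 0 lower, 6 passing in each organ (median 0.98 in kidney and 0.33 in lung). Loxl1, a lysyl oxidase paralogue needed for elastic fibres, had levels of 11.33 and 11.19 in fibrotic kidneys, against 8.52, 8.39 and 8.52 in healthy kidneys. Levels were 12.75, 12.75 and 12.67 in fibrotic lungs, against 10.92, 11.33 and 11.06 in healthy lungs, a rise of 2.20 ± 0.10 (limma adjusted p = 1.3e-06). P3h1, a collagen prolyl 3-hydroxylase, rose by 1.35 and 1.51 (average 1.43 ± 0.16; limma adjusted p = 0.00013). P4ha1, a prolyl 4-hydroxylase subunit, and Pcolce2, a procollagen protease enhancer, passed with opposite signs, 0.70 and 1.66 in kidney and -1.77 and -2.16 in lung.

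Of the proteases and inhibitors that remodel matrix, 19 of 25 were common and higher and 0 lower, 12 passing in each organ (median 1.47 in kidney and 1.21 in lung; 1.39 in kidney with genes at background set to their bound). Mmp14, the membrane-bound collagenase that activates Mmp2, had levels of 10.68 and 11.30 in fibrotic kidneys, against 6.89, 7.22 and 7.51 in healthy kidneys. Levels were 12.31, 11.91 and 12.18 in fibrotic lungs, against 9.83, 10.19 and 9.82 in healthy lungs. Mmp2, a gelatinase of fibroblasts, rose by 3.15 in kidney and 1.21 in lung (average 2.18 ± 0.15; limma adjusted p = 6.9e-06). Ctss, a cathepsin of antigen-presenting cells, was above background on no healthy kidney; its rise was at least 2.59-fold in kidney and 2.65-fold in lung. Ctsk, a cathepsin that cleaves collagen triple helices, rose by 2.49 ± 0.24 (limma adjusted p = 5.7e-05), to 9.25 and 8.86 in fibrotic kidneys, against 7.08, 7.09 and 7.06 in healthy kidneys, and to 12.47, 11.68 and 11.59 in fibrotic lungs, against 9.17, 9.42 and 8.15 in healthy lungs. Timp2 and Timp3, relatives of Timp1, were not common: Timp2 was 1.37 in kidney and -0.54 in lung, and Timp3 -0.28 and -0.13.

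The TGF-beta pathway had both shared and unshared members. Of 19 ligands, activators and targets tested, 10 were common and higher and 0 lower, 7 more passed in the average with organs of different sign, and 3 passed higher in each organ. The median was 1.64 in kidney and 0.21 in lung, and 1.30 and 0.03 with genes at background set to their bound. The ligand Tgfb1 had levels of 8.02 and 8.92 in fibrotic kidneys, against 6.26, 5.23 and 5.94 in healthy kidneys. Levels were 8.57, 8.24 and 8.39 in fibrotic lungs, against 8.47, 8.48 and 8.53 in healthy lungs. It was higher in fibrotic kidneys by 2.66 (limma adjusted p = 0.00014), while the lung arrays overlapped at -0.10 (limma adjusted p = 0.82), so its average of 1.28 came from the kidney. Itgb6, the epithelial integrin chain that frees latent TGF-beta, was common at 1.26 in kidney and 0.58 in lung (average 0.92 ± 0.14; limma adjusted p = 0.00059), as was Tgif1, a SMAD corepressor that TGF-beta induces, at 1.68 and 1.25. Ccn2, connective tissue growth factor, a TGF-beta target, had levels of 13.77 and 13.93 in fibrotic kidneys, against 12.03, 11.73 and 12.16 in healthy kidneys. Levels were 13.96, 14.18 and 13.86 in fibrotic lungs, against 13.69, 14.02 and 13.65 in healthy lungs. The groups did not overlap in kidney and did in lung, and the lung change was 0.21 (limma adjusted p = 0.33), so only the sign was shared.

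Of 22 contractile and myofibroblast genes, 16 were common and higher and 0 common and lower, with a median of 1.63 in kidney and 0.31 in lung. In kidney 18 were higher past the test (23.2% over all genes), while in lung 7 were higher and 3 lower (18.9% each over all genes). Thus 6 passed higher in each organ (5.52% over all genes) and 3 with opposite signs (8.37% over all genes). Acta2, smooth muscle actin, the usual myofibroblast marker, had levels of 12.16 and 12.72 in fibrotic kidneys, against 10.32, 9.63 and 10.77 in healthy kidneys. Levels were 13.67, 13.61 and 13.94 in fibrotic lungs, against 13.61, 13.48 and 12.48 in healthy lungs. In lung the groups overlapped (change 0.55; limma adjusted p = 0.24), and the average of 1.37 ± 0.26 (limma adjusted p = 0.0023) was carried by the kidney. Tagln, transgelin, an actin-binding protein of smooth muscle, was at least 4.07-fold higher in fibrotic kidneys and 1.85-fold higher in fibrotic lungs, and Tpm1, tropomyosin, rose by 1.67 and 0.62 (average 1.15 ± 0.10; limma adjusted p = 3.3e-05). Flna, filamin A, was 2.92 in kidney and 0.24 in lung (limma adjusted p of the lung change = 0.43). Thy1, a surface marker of fibroblasts, T cells and neurons, passed with opposite signs, 4.38 in kidney and -1.94 in lung. Vascular genes did not share a direction. Of 21 endothelial genes, 1 was common and higher (17.8% over all genes) and 2 were common and lower (12.4% over all genes). A further 8 passed in each organ with opposite signs (8.37% over all genes), and the median was 0.57 in kidney and -0.85 in lung.

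Of 28 macrophage and monocyte genes, 23 were common and higher and 0 lower, 14 passing in each organ, with a median of 2.49 in kidney and 1.77 in lung. With genes at background set to their bound, the kidney median was 2.37. The summed level of the list was 44000 to 46000 in fibrotic kidneys, against 6140 to 7250 in healthy kidneys, and 69100 to 97600 in fibrotic lungs, against 67100 to 70700 in healthy lungs, so the sums parted in kidney and overlapped in lung. Mrc1, the mannose receptor CD206, had levels of 9.50 and 9.66 in fibrotic kidneys, against 6.32, 6.09 and 6.25 in healthy kidneys. Levels were 11.86, 11.73 and 11.93 in fibrotic lungs, against 9.54, 9.82 and 9.39 in healthy lungs. No array overlapped and the replicates of each group agreed within 0.43, and Mrc1 rose by 2.81 ± 0.11 (limma adjusted p = 7.6e-07). Fcgr3, an activating receptor for IgG, rose by 4.26 and 2.67 (average 3.47 ± 0.19; limma adjusted p = 2.3e-06). C1qc, a chain of complement C1q that macrophages make, rose by 2.96 and 2.76 (average 2.86 ± 0.17; limma adjusted p = 3.3e-06). Without fibrotic lung replicate 3 and healthy lung replicate 3, 18 of the list were common and higher. Of 15 genes of alternatively activated macrophages, 13 were common and higher and 0 lower, 4 passing in each organ (median 2.33 in kidney and 2.10 in lung, and 1.72 in kidney with genes at background set to their bound). Besides Retnla and Mrc1, Mgl2, a C-type lectin, rose to 9.10 and 7.93 in fibrotic kidneys, against 5.38, 5.39 and 5.40 in healthy kidneys, and to 8.60, 8.75 and 10.20 in fibrotic lungs, against 7.41, 7.68 and 7.48 in healthy lungs (average 2.39 ± 0.30; limma adjusted p = 0.00024).

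Of 23 chemokines and receptors, 17 were common and higher, 10 of 23 passed higher in each organ, and 1, Cxcl12, was common and lower. Ccl2, the main monocyte-attracting chemokine, was above background on no healthy array, so it entered the test only through its fibrotic arrays. It had levels of 7.41 and 6.73 in fibrotic kidneys, against 4.48, 4.39 and 4.43 in healthy kidneys. Levels were 8.70, 8.72 and 8.95 in fibrotic lungs, against 4.58, 4.62 and 4.35 in healthy lungs. It was at least 3.37-fold higher in fibrotic kidneys and at least 14.1-fold higher in fibrotic lungs (limma adjusted p = 7.6e-07). Ccl9, a myeloid chemokine known in rodents, had levels of 10.79 and 11.36 in fibrotic kidneys, against 5.05, 5.72 and 5.50 in healthy kidneys. Levels were 11.82, 11.50 and 12.05 in fibrotic lungs, against 8.51, 9.54 and 9.37 in healthy lungs, a larger rise in kidney (limma adjusted p of the difference = 0.00057). Cxcl12, a stromal chemokine that holds stem and progenitor cells in place, fell by 0.79 ± 0.28 on average (limma adjusted p = 0.043), although neither organ passed alone (limma adjusted p = 0.068 in kidney and 0.29 in lung).

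Lymphocyte and antigen-presentation genes often differed in sign between the organs. Of 9 T and natural killer cell genes 0 were common, and 8 were lower past the test in lung (18.9% over all genes) while 4 were higher in kidney (23.2%). Of 7 B and plasma cell genes, 4 were common and lower (Cd22, Mzb1, Pou2af1 and Vpreb3), 57.1% against 12.4% over all genes. The median was -0.09 in kidney and -1.77 in lung, and 0.00 in kidney with genes at background set to their bound. Of 16 dendritic cell and MHC class II genes, 3 were common and higher (18.8%, close to the 17.8% over all genes) and 7 passed with opposite signs (8.37% over all genes). H2-Eb1, an MHC class II chain, had levels of 12.59 and 11.41 in fibrotic kidneys, against 9.40, 9.49 and 9.66 in healthy kidneys. Levels were 8.69, 8.24 and 9.48 in fibrotic lungs, against 11.42, 11.20 and 11.56 in healthy lungs, so the groups parted in both organs in different directions and the average was -0.05 (limma adjusted p = 0.89). The interferon response was likewise uneven, with 7 of 24 genes common and higher (29.2%, against 17.8% over all genes). Its median was 1.44 in kidney and -0.10 in lung, and 1.14 in kidney with genes at background set to their bound. Neutrophil genes were common and higher in 6 of 14 (42.9%, against 17.8% over all genes). Their summed level varied widely within groups, from 3030 to 38300 in fibrotic kidneys, against 494 to 668 in healthy kidneys, and from 27100 to 52400 in fibrotic lungs, against 3660 to 23800 in healthy lungs.

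Of 20 genes of epithelial injury and repair, 17 were common and higher and 0 lower, 13 passing in each organ, with a median of 3.55 in kidney and 1.36 in lung. Cd44, a hyaluronan receptor of wounded epithelium and leukocytes, had levels of 8.65 and 9.78 in fibrotic kidneys, against 4.84, 4.93 and 5.25 in healthy kidneys. Levels were 11.19, 11.05 and 11.06 in fibrotic lungs, against 9.43, 9.63 and 9.17 in healthy lungs. Socs3, the feedback inhibitor of IL-6 family signalling, rose by 3.86 ± 0.26 (limma adjusted p = 7.1e-06), to 10.22 and 11.61 in fibrotic kidneys, against 5.78, 4.98 and 5.98 in healthy kidneys, and to 11.13, 11.61 and 11.44 in fibrotic lungs, against 9.14, 9.01 and 8.89 in healthy lungs. Both rises were larger in kidney (limma adjusted p of the difference = 0.00073 for Cd44 and 0.0015 for Socs3). Vcam1, an adhesion molecule of activated endothelium and of injured tubules, was 4.01 in kidney with tight replicates, 11.68 and 11.45 in fibrotic kidneys, against 7.56, 7.48 and 7.63 in healthy kidneys, while the lungs overlapped (change 0.16; limma adjusted p = 0.42). Krt20 and Sox4, a keratin and a transcription factor, were 5.42 and 3.57 in kidney and -0.04 and -0.82 in lung, and so were not common.

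The S100 proteins, annexins and galectins, calcium- or glycan-binding proteins many of which are released by stressed cells, had 13 of 21 common and higher, 7 passing in each organ, and 1, Lgals8, lower. Lgals1, galectin 1, rose to 11.56 and 12.44 in fibrotic kidneys, against 10.42, 10.25 and 10.07 in healthy kidneys, and to 12.76, 12.71 and 12.96 in fibrotic lungs, against 10.04, 10.63 and 10.43 in healthy lungs (average 2.10 ± 0.17; limma adjusted p = 2.5e-05). Lgals3, galectin 3, a macrophage and epithelial product, rose by 2.14 and 1.72 (average 1.93 ± 0.17; limma adjusted p = 3.7e-05). S100a10, the annexin A2 partner, rose by 2.28 and 1.56 (average 1.92 ± 0.17; limma adjusted p = 3.8e-05). Both galectins and S100a10 had no overlap between fibrotic and healthy arrays in either organ.

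**Figure D3:**
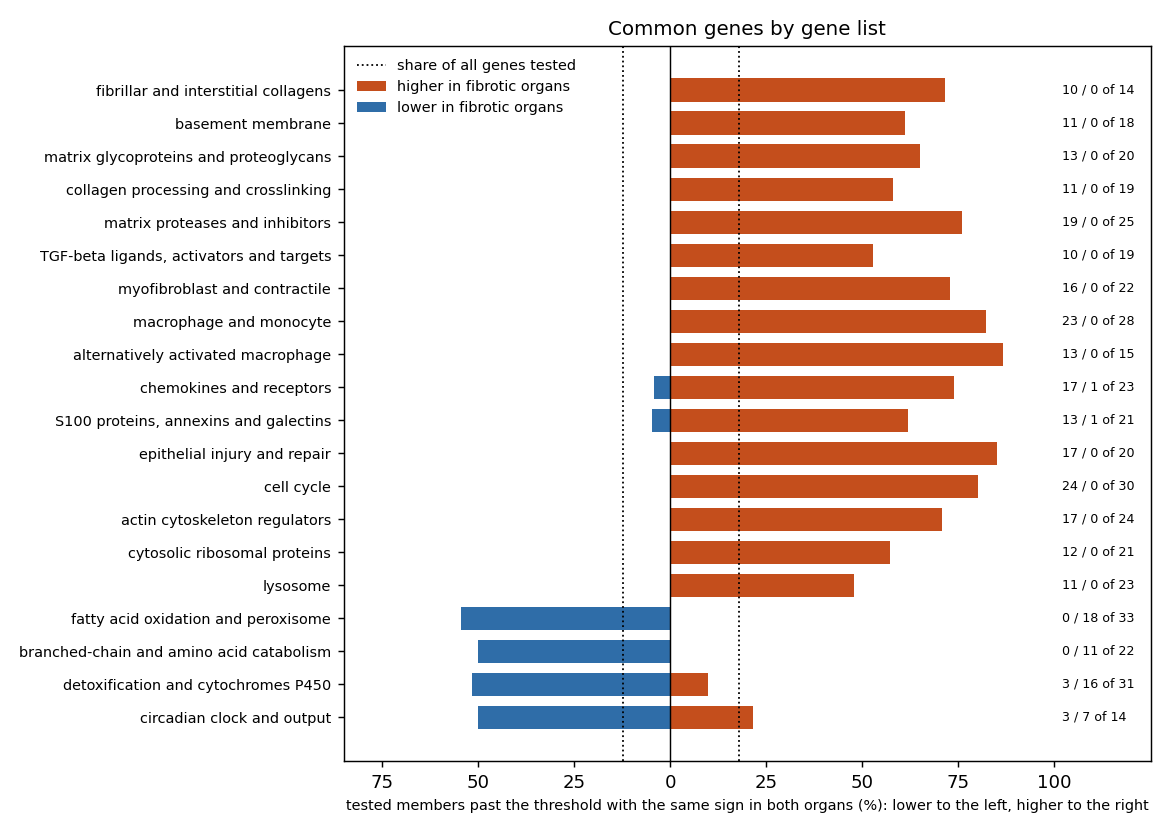
Share of each list's tested members that were common genes (x axis, percent), higher in the fibrotic organs to the right and lower to the left, for 20 of the 44 lists made (y axis), with the counts higher / lower of tested at the right edge. Dotted lines give the share over all genes tested, 17.8% higher and 12.4% lower; the 16 lists from collagens to lysosome lie beyond the line on the right and the 4 lists below them beyond the line on the left. The clock list, 50% lower, lies at 21.4% on the right, close to the line. Lists not drawn include some near or short of the lines, such as dendritic cell and MHC class II (18.8% higher), endothelial (4.76% higher) and oxidative phosphorylation (8.33% lower). Others not drawn lie beyond a line, such as neutrophil (42.9% higher).

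Of 30 cell cycle genes tested, 24 were common and higher and 0 lower, 20 of them passing in each organ, with a median of 1.43 in kidney and 1.51 in lung. With genes at background set to their bound, the kidney median was 1.27. Prc1, which bundles the microtubules of the dividing spindle, had levels of 8.82 and 10.41 in fibrotic kidneys, against 6.53, 6.93 and 6.30 in healthy kidneys. Levels were 9.87, 9.67 and 9.90 in fibrotic lungs, against 7.37, 7.47 and 7.43 in healthy lungs. Kif22, a chromosome-pushing kinesin, rose to 7.47 and 8.61 in fibrotic kidneys, against 5.16, 5.30 and 5.61 in healthy kidneys, and to 7.74, 7.96 and 7.50 in fibrotic lungs, against 5.66, 6.09 and 5.81 in healthy lungs. The averages were 2.71 ± 0.25 for Prc1 (limma adjusted p = 3.9e-05) and 2.28 ± 0.20 for Kif22 (limma adjusted p = 3.5e-05). Cdca8, borealin, a subunit of the chromosomal passenger complex, was at least 5.92-fold higher in fibrotic kidneys and 4.05-fold higher in fibrotic lungs. The G1 cyclins Ccnd1 and Ccne1 were not common, at 0.01 and 0.57 in kidney and 0.26 and 0.28 in lung. The rise of these mitotic genes stood beside the rise of the cell cycle inhibitor Cdkn1a described above.

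Since these genes moved together, their promoters were read for CCAAT boxes (CCAAT on either strand) and for the cell cycle homology element (TTTGAA or TTTAAA on either strand), the letters known from mitotic gene promoters. RefSeq windows (GRCm38.p6, the 250 bases before the start) were found for 22 of the 24 common cell cycle genes, of which 17 held CCAAT and 10 held the element. Among all 27025 genes with a window 34.5% held CCAAT and 25.5% held the element, and among the 10361 tested here 35.6% and 18.4%. The 7 genes with both were Cdk1, Cdc20, Plk1, Top2a, Kif11, Kif22 and Mcm5. The windows of the 3 of these with the largest average effect are printed 5′ to 3′ on the gene's strand to show how the boxes lie, with CCAAT and the element in capitals, either as spelled or as the reverse complement; these genes were chosen after their values were seen.
Cdk1 (chr10:69352913-69353162, minus strand): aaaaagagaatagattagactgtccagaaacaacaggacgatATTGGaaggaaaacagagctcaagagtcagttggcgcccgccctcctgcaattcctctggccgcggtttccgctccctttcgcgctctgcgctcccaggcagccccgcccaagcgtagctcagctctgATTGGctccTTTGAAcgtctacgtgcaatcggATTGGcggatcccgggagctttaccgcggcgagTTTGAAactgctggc
Kif22 (chr7:127042421-127042670, minus strand): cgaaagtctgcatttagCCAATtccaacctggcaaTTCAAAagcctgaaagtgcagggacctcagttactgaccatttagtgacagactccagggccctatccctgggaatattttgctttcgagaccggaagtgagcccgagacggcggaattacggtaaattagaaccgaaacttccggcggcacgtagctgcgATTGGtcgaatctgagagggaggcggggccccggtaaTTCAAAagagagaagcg
Top2a (chr11:99024190-99024439, minus strand): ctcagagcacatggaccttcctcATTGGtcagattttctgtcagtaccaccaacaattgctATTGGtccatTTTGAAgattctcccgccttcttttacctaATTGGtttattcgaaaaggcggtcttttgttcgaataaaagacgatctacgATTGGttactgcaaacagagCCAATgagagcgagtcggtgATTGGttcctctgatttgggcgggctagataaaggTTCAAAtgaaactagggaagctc
Cdk1 (average 2.87), the kinase that starts mitosis, had 3 CCAAT matches and 2 of the element, Kif22 (average 2.28) 2 and 2, and Top2a (average 2.20), which untangles replicated DNA, 6 and 2. A match describes the letters in the window only.

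Growth-related housekeeping genes followed in smaller steps. Of 21 cytosolic ribosomal protein genes, 12 were common and higher and 0 lower, with a median of only 0.59 in kidney and 0.38 in lung, and 18 were common and higher with a common median against 9 from the processed intensities of the authors. Rps3 had levels of 12.83 and 12.72 in fibrotic kidneys, against 11.96, 11.94 and 12.13 in healthy kidneys. Levels were 12.83, 13.07 and 13.04 in fibrotic lungs, against 12.34, 12.11 and 12.47 in healthy lungs, a rise of 0.72 ± 0.10 (limma adjusted p = 0.00054), and Rpl10a rose by 0.56 ± 0.09 (limma adjusted p = 0.00069). Rplp0, a stalk protein of the large subunit, rose by 0.79 in kidney and 1.57 in lung. Actin and tubulin cytoskeleton genes were common and higher in 17 of 24 (median 0.90 in kidney and 0.93 in lung). Tuba1a, an alpha tubulin, had levels of 9.67 and 10.16 in fibrotic kidneys, against 8.09, 8.21 and 8.20 in healthy kidneys. Levels were 12.30, 12.28 and 12.17 in fibrotic lungs, against 10.88, 10.75 and 10.78 in healthy lungs. Arpc1b, a subunit of the Arp2/3 actin-branching complex, rose by 2.57 and 1.02, and Tmsb10, a thymosin that sequesters actin, by 2.90 and 0.98. Lysosomal genes were common and higher in 11 of 23. Lgmn, the protease legumain, counted among them on a kidney change of 0.01, with 12.32 and 12.60 in fibrotic kidneys, against 12.60, 12.44 and 12.31 in healthy kidneys, so its average of 1.38 was that of the lung (2.75).

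**Figure D4:**
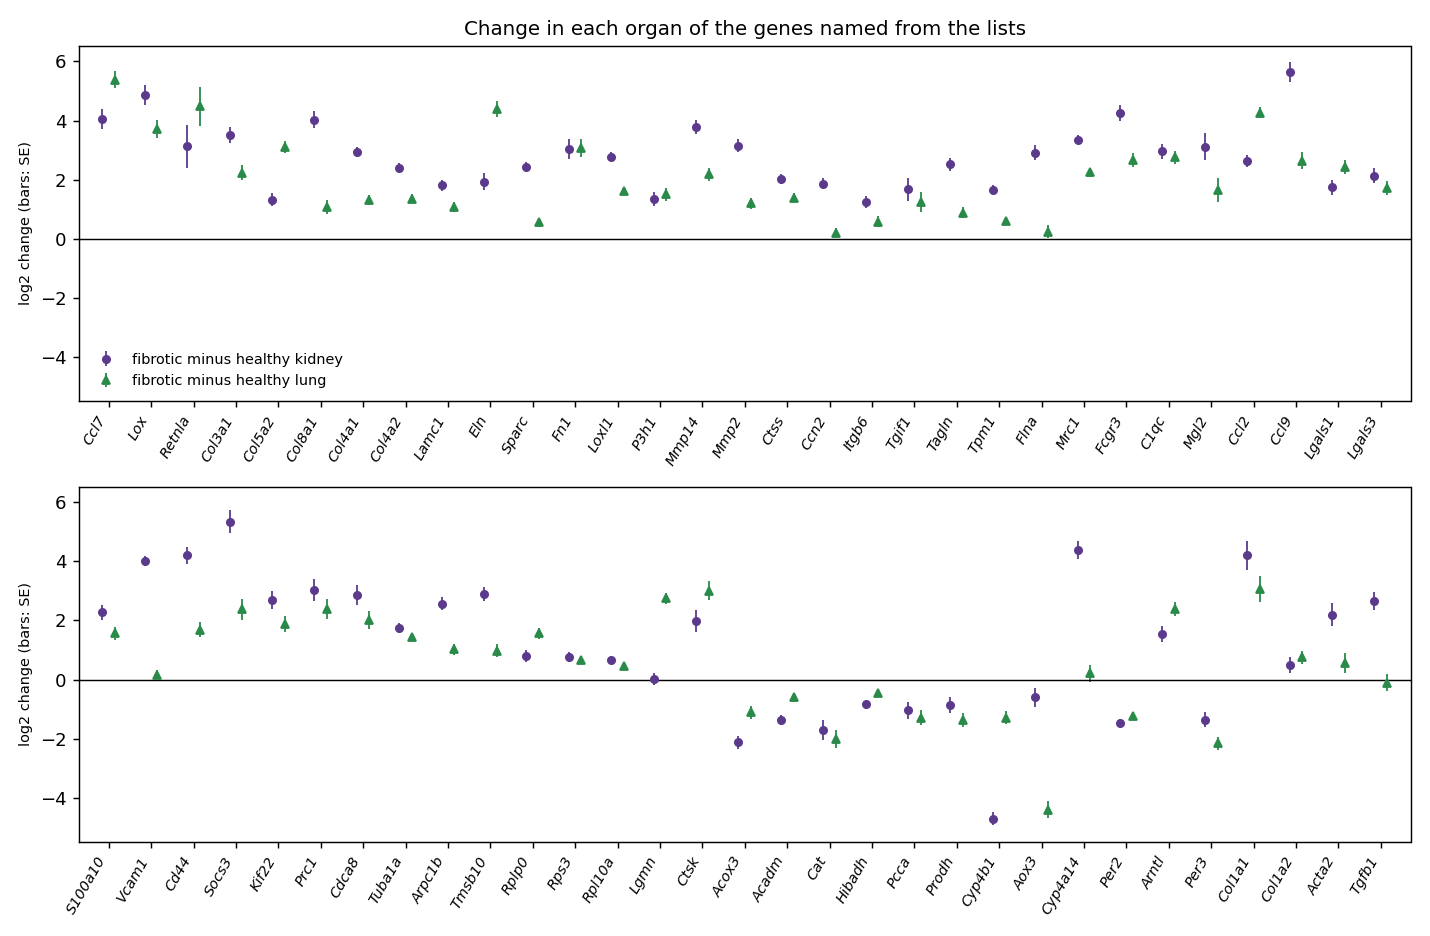
Change in kidney (circles) and in lung (triangles), each fibrotic minus healthy on the log2 scale (y axis, bars are the SE of the fit), for the genes named from the lists (x axis). Fn1, P3h1, C1qc and Rps3 lie close together in both organs, Eln and Aox3 reach farther in lung, and Vcam1, Flna, Ccn2, Cyp4a14 and Tgfb1 move in kidney with lung values near 0. Eln was near background in healthy kidneys, Aox3 in kidneys and Cyp4a14 in lungs, which limits the change that could be seen there.

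Several lists of metabolic genes had common lower members above the 12.4% over all genes. Of 33 genes of fatty acid oxidation and the peroxisome, 18 were common and lower and 0 higher, 6 passing in each organ, with a median of -1.08 in kidney and -0.44 in lung; a common median left 10, and so did the processed intensities of the authors. Acox3, a peroxisomal oxidase of branched-chain fatty acids, had levels of 9.31 and 8.72 in fibrotic kidneys, against 11.01, 11.12 and 11.28 in healthy kidneys. Levels were 8.01, 7.27 and 7.62 in fibrotic lungs, against 8.82, 8.73 and 8.69 in healthy lungs. Cat, catalase, which clears the peroxide that such oxidases make, had levels of 10.80 and 9.74 in fibrotic kidneys, against 12, 11.80 and 12.11 in healthy kidneys. Levels were 9.10, 8.69 and 9.19 in fibrotic lungs, against 11.05, 10.48 and 11.46 in healthy lungs. The groups did not overlap for either gene, and the averages were -1.62 ± 0.16 (limma adjusted p = 5.2e-05) and -1.85 ± 0.23 (limma adjusted p = 0.00021). Acadm, the medium-chain acyl-CoA dehydrogenase of mitochondria, fell by 1.35 in kidney and 0.59 in lung. Ppargc1a, the coactivator that drives mitochondrial gene expression, was common at -1.44 and -1.02, and Ppara, the fatty-acid-sensing receptor, at -2.42 and -0.11. Of 36 oxidative phosphorylation genes, 3 (8.33%) were common and lower, below the 12.4% over all genes, and 0 higher, with a median of -0.35 in kidney and 0.09 in lung. In kidney 13 of them were lower past the test (15.6% over all genes), and in lung 1 was lower and 4 were higher (18.9% each over all genes).

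Of 22 genes of amino acid breakdown, 11 were common and lower and 0 higher, 5 passing in each organ (median -0.84 in kidney and -0.39 in lung). Hibadh, of valine breakdown, had levels of 13.42 and 13.04 in fibrotic kidneys, against 14.06, 14.11 and 14.04 in healthy kidneys. Levels were 12, 12.01 and 12.10 in fibrotic lungs, against 12.49, 12.44 and 12.50 in healthy lungs, and it fell by 0.64 ± 0.10 without overlap (limma adjusted p = 0.00064). Pcca, a subunit of propionyl-CoA carboxylase, was -1.04 in kidney and -1.29 in lung (limma adjusted p of the average = 0.00094), and Prodh, proline dehydrogenase, which degrades the amino acid abundant in collagen, -0.86 and -1.36 (limma adjusted p of the average = 0.001). Of 18 glycolysis and hypoxia genes, 7 were common and higher (38.9%, against 17.8% over all genes). A further 2 were common and lower (11.1%, close to the 12.4% over all genes). Among the higher ones, Slc2a1, the glucose transporter GLUT1, was at 1.12 and 1.45 and Pkm, pyruvate kinase, at 1.64 and 0.98.

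Of 31 detoxification genes tested, 16 were common and lower and 3 higher (median -0.35 in kidney and -1.06 in lung, and -0.23 in kidney with genes at background set to their bound). Of these, 9 passed lower in each organ and 1 higher. Cyp4b1, a P450 of lung and kidney, had levels of 9.94 and 9.21 in fibrotic kidneys, against 14.44, 14.22 and 14.15 in healthy kidneys. Levels were 10.58, 10.82 and 10.98 in fibrotic lungs, against 12.34, 11.96 and 11.94 in healthy lungs. Its fall was larger in kidney (limma adjusted p of the difference = 5.7e-05; average -2.99 ± 0.16, limma adjusted p = 2.2e-06), and it belongs to the androgen-dependent kidney genes that moved with the Xist and Eif2s3y pattern, whose part in the result was not tested. Aox3, an aldehyde oxidase, had levels of 7.21, 6.64 and 8.03 in fibrotic lungs, against 11.73, 11.54 and 11.77 in healthy lungs. Its lung change of -4.39 stood beside a kidney change of -0.60 (limma adjusted p = 0.17), and the changes differed (limma adjusted p of the difference = 0.00015). In kidney Aox3 was near background, 5.25 and 4.86 in fibrotic kidneys, against 5.72, 5.67 and 5.57 in healthy kidneys. The lowest signals above background there were 5.1 to 5.4, so a fall as large as in lung could not have been seen. Cyp4a14, a fatty acid hydroxylase, was common and higher on the sign of a lung change of 0.21, and rose by 4.38 in kidney. It was above background on 1 fibrotic lung and no healthy lung (5.22, 4.53 and 4.50, against 4.59, 4.47 and 4.55). Its lung sign thus rests on values at background, and a fall there could not have been seen.

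The 12 largest shared falls included 2 carboxylesterases and 3 P450s. Ces1f, a carboxylesterase, had levels of 8.98 and 8.22 in fibrotic kidneys, against 12.90, 13.23 and 13.25 in healthy kidneys. Levels were 6.15, 5.29 and 5.61 in fibrotic lungs, against 9.02, 9.14 and 10.40 in healthy lungs. Every fibrotic array lay below every healthy array of its organ, and Ces1f fell by 4.18 ± 0.28 (limma adjusted p = 6.7e-06). Cyp2e1, the ethanol-inducible P450, had levels of 11.57 and 10.59 in fibrotic kidneys, against 14.46, 14.52 and 14.30 in healthy kidneys. Levels were 6.32, 6.56 and 8.26 in fibrotic lungs, against 9.63, 12.15 and 13.80 in healthy lungs, a wide spread in lung with the highest value on the array that held liver transcripts. Its average was -4.08, and -3.60 without that array. Cyp2a5, a coumarin-hydroxylating P450, was lowest of the healthy lungs there, 10.23, 8.50 and 10.28 in fibrotic lungs, against 12.52, 13.33 and 11.63 in healthy lungs, and fell by 3.17 ± 0.38 (limma adjusted p = 0.00019).

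Several of these falls rested in part on healthy lung replicate 3. Cyp4a12a, an androgen-dependent P450, had levels of 4.45, 4.49 and 4.51 in fibrotic lungs, against 5.42, 4.99 and 10.94 in healthy lungs, and its average of -3.51 was -2.57 without that array. Haao, an enzyme of tryptophan breakdown, had levels of 4.49, 4.70 and 4.76 in fibrotic lungs, against 6.17, 5.79 and 10.13 in healthy lungs, and its average of -2.39 was -1.70 without it; without fibrotic kidney replicate 2 it was -1.97 (limma adjusted p = 0.095). Both genes were above background on no fibrotic lung. They were at least 4.69-fold (Cyp4a12a) and 5.57-fold (Haao) lower there, bounds that include healthy lung replicate 3. The average over both organs fell without that array too, with limma adjusted p of 3.5e-06 for Cyp4a12a and 0.0011 for Haao. Neither gene passed in each organ: limma adjusted p was 0.11 for Cyp4a12a in lung and 0.14 for Haao in kidney. Fmo5, a flavin monooxygenase, had an average of -2.95 and of -2.61 without the array. Ephx2, which hydrolyses lipid epoxides, had -2.29 and -1.82, Paqr9, a membrane receptor-like protein, -2.31 and -1.98, and Gchfr, the feedback regulator of tetrahydrobiopterin synthesis, -1.92 and -1.66. Each of these genes was highest on replicate 3 among the healthy lungs. Ces1e, a further carboxylesterase, also leaned on the kidneys, with an average of -2.64 that was -3.33 without fibrotic kidney replicate 1 and -1.94 without replicate 2. Slc13a4, a sulfate transporter, had levels of 6.86 and 5.66 in fibrotic kidneys, against 8.68, 8.50 and 8.07 in healthy kidneys. Levels were 6.79, 6.31 and 6.00 in fibrotic lungs, against 8.62, 8.47 and 8.65 in healthy lungs, and it fell by 2.18 ± 0.23 (limma adjusted p = 8.3e-05). Ppp1r16b, a phosphatase subunit of endothelial cells, had levels of 8.40 and 7.56 in fibrotic kidneys, against 10.49, 10.22 and 10.39 in healthy kidneys. Levels were 8.62, 8.18 and 8.47 in fibrotic lungs, against 10.32, 10.11 and 10.34 in healthy lungs, and Ppp1r16b fell by 2.11 ± 0.16 (limma adjusted p = 1.4e-05). The ranking ended at Ppp1r16b, with a smaller change of -1.84, and the next gene was Nat8, an N-acetyltransferase of kidney and liver, at -1.83.

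**Figure D5:**
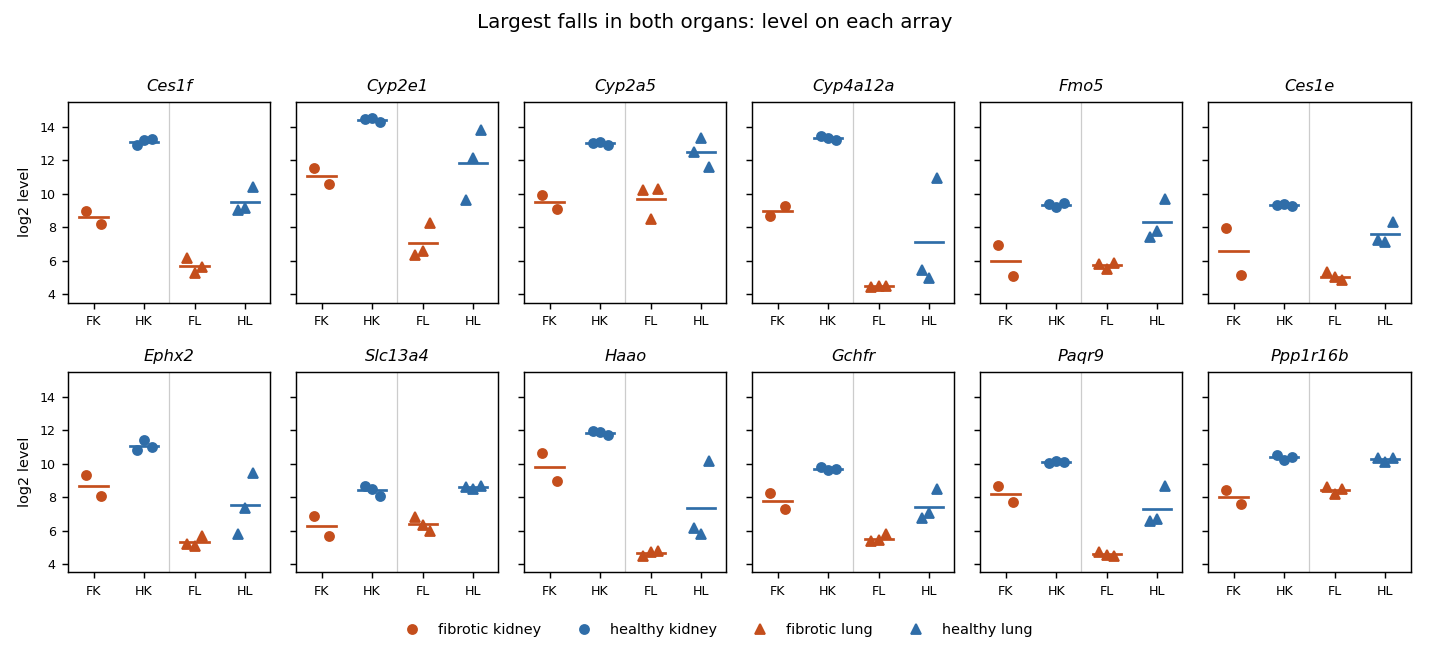
Log2 level (y axis, 1 point per array, bars are group means) of the 12 genes with the largest shared fall in fibrotic kidney (FK), healthy kidney (HK), fibrotic lung (FL) and healthy lung (HL). Fibrotic points lie below healthy points of the same organ in every panel, and 1 healthy lung stands above the others for Cyp4a12a (10.94) and Haao (10.13).

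Of 14 circadian clock and output genes, 7 were common and lower (50%, against 12.4% over all genes) and 3 common and higher (21.4%, close to the 17.8% over all genes). Arntl, the clock activator BMAL1, had levels of 6.33 and 6.56 in fibrotic kidneys, against 5.14, 5.01 and 4.57 in healthy kidneys. Levels were 7.73, 7.63 and 7.21 in fibrotic lungs, against 5.02, 5.60 and 4.79 in healthy lungs. Per2, a repressor of the same loop, had levels of 9.32 and 9.23 in fibrotic kidneys, against 10.70, 10.65 and 10.93 in healthy kidneys. Levels were 10.19, 10.51 and 10.27 in fibrotic lungs, against 11.53, 11.60 and 11.56 in healthy lungs. Arntl rose by a fitted 1.96 ± 0.18 (limma adjusted p = 3.8e-05) while Per2 fell by 1.36 ± 0.10 (limma adjusted p = 1.3e-05), each without overlap and with replicates of a group within 0.81. No healthy kidney was above background for Arntl, and its rise in kidney was at least 2.18-fold. Per3, a further repressor, fell to 5.74 and 5.06 in fibrotic kidneys, against 6.44, 6.61 and 7.21 in healthy kidneys, and to 5.63, 5.81 and 5.62 in fibrotic lungs, against 7.91, 7.78 and 7.82 in healthy lungs. Clock and Bhlhe40 were the other common higher genes, at 0.56 and 1.10, and the output factors Dbp (-2.30), Tef (-1.55) and Hlf (-0.46), with Ciart (-1.04) and Usp2 (-1.56), the other common lower ones. The hour at which tissue was taken is unknown here, so time of day and fibrosis cannot be told apart.

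The E-box CACGTG, which reads the same on both strands and is bound by the CLOCK and BMAL1 pair, was looked for in the same RefSeq windows, found for 8 of the 10 common clock genes. It was in the windows of Tef and Ciart, and in 6.05% of all windows and 8.04% of those of genes tested. These windows are printed 5′ to 3′ on the gene's strand to show the E-boxes, in capitals, of the output genes that fell.
Tef (chr15:81802423-81802672, plus strand): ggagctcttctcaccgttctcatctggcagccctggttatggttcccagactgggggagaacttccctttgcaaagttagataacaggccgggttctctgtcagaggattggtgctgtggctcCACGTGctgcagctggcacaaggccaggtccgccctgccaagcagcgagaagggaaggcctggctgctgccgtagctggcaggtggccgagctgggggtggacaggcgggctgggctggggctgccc
Ciart (chr3:95882229-95882478, minus strand): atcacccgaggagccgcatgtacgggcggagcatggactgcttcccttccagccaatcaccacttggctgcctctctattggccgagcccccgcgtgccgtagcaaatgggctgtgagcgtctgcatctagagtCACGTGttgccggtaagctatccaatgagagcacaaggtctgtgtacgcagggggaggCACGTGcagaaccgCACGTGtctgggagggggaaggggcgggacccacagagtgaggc
Tef, a PAR bZIP output factor, had 1 E-box and Ciart, a clock repressor, 3.

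Outside the shared response stand the genes that passed in each organ with opposite signs, here the 4 on each side whose smaller change was largest. Besides H2-Eb1, described above, these included Ccl5, a chemokine of T cells and macrophages, which was higher in fibrotic kidneys and lower in fibrotic lungs. Its levels were 10.29 and 9.47 in fibrotic kidneys, against 5.38, 5.41 and 5.46 in healthy kidneys. Levels were 5.92, 5.72 and 6.51 in fibrotic lungs, against 8.33, 9.19 and 8.30 in healthy lungs. H2-DMb1, which loads peptides on MHC class II, was 2.71 in kidney and -2.50 in lung, and Piezo2, a mechanosensitive channel, 2.36 and -2.61. In the reverse direction, Cyp51, the lanosterol demethylase, had levels of 9.28 and 8.25 in fibrotic kidneys, against 11.11, 10.79 and 11.30 in healthy kidneys. Levels were 9.39, 10.13 and 9.10 in fibrotic lungs, against 6.74, 6.64 and 6.97 in healthy lungs. Nsdhl, another enzyme of cholesterol synthesis, was -3.21 in kidney and 2.52 in lung, Frrs1, a ferric reductase, -2.88 and 2.27, and Slc39a8, a zinc and manganese importer, -2.21 and 3.63. For these genes the average lay between -0.34 (Nsdhl) and 0.95 (Ccl5), although each passed in each organ.

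Markers of other cells and tissues were counted in the same way. Of 5 erythroid genes all were common and lower, mostly in lung, where their summed level was 856 to 1360 in fibrotic lungs, against 36700 to 37400 in healthy lungs, and in kidney it was 7590 to 13500 in fibrotic kidneys, against 15400 to 22300 in healthy kidneys. Of 21 proximal tubule genes, 7 were common and lower, with 11 lower past the test in kidney (15.6% over all genes) and 1 in lung (18.9%). Of 16 liver genes 1 was common and of 16 cardiac and skeletal muscle genes 0, although the muscle list summed to 5760, 6090 and 14600 on the fibrotic lungs, against 36200, 92500 and 1710 on the healthy lungs. Of the airway list, 5 of 15 genes were higher past the test in kidney, and of the alveolar type 2 list 6 of 14, beside 23.2% over all genes. The part of these transcripts in the other results was not tested.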

How the data were processed

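Illumina bead arrays of 11 mouse organs were analysed: 2 fibrotic kidneys, 3 healthy kidneys, 3 fibrotic lungs and 3 healthy lungs, with separate mice within a group per the labels. Trizol RNA was amplified to biotin-labelled cRNA, per the labels' protocols. The authors deposited non-normalized intensity values and a detection p-value for each probe, and processed intensities, exported with GenomeStudio 5.0 per the submitters' processing notes; the processed values of each array were a straight-line function of its non-normalized ones. Slide and scan date were not given in the sources used here.

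The intensities were background-corrected, quantile-normalised and log2-transformed with neqc (limma 3.58.1, R 4.3.3, offset 16). Of 45281 probes, 34885 had 1 gene symbol, 18 several and 10378 none in the platform annotation. A probe entered when 2 or more arrays had a detection p-value below 0.05 (20641 probes), and the probe with the highest mean level stood for each gene, leaving 12865 genes. lmFit and eBayes fitted 1 coefficient per group, with Benjamini-Hochberg adjustment over all genes. The number of arrays, 2 or 3 a group, limits the precision. Where a group was above background on no array, its bound was the higher, on each array, of the lowest signal among probes above background and the probe's own.

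Genes named were the 12 largest rises and falls by smaller organ change among common genes without overlap, the 3 smallest p of each described list, fixed genes (of which Postn, Spp1, Cd68, Ddx3y and Alb were not among the genes tested) and the 4 largest opposite changes on each side. The members and lists were chosen with earlier results of these data known. By the identifiers in the titles, each healthy mouse gave a kidney and a lung, whereas the descriptions number all mice separately. The titles were followed, and the mouse was also fitted as a random block: the deviations of same-mouse pairs correlated at -0.07, 0.014 and -0.113, the estimated correlation was -0.025, and 2291 genes were common and higher and 1606 lower. The fit and its contrasts were tested on simulated data. Other backgrounds, offsets, scalings, filters and thresholds and each array left out were tried as alternatives.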

Additional observations from a re-analysis of the deposited data

Results flagged for a closer look

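For 46 of the 96 genes named by the rule, 36 of them common, the change in kidney and the change in lung differed. This was a limma test of the difference itself, with adjusted p under 0.05. Over all genes tested, 5150 of 12865 (40.0%) differed in this way, so such a difference is not particular to the genes named. Each change is fibrotic minus healthy on the log2 scale. A positive difference means that the kidney change was the more positive, which for a gene that fell is the smaller fall. Among matrix genes and their proteases, the kidney change minus the lung change was 1.27 for Col3a1, -1.78 for Col5a2, 2.95 for Col8a1, 1.61 for Col4a1, 1.05 for Col4a2, 0.75 for Lamc1, -2.45 for Eln, 1.85 for Sparc, 1.16 for Loxl1, 1.60 for Mmp14 and 1.94 for Mmp2. Among genes of TGF-beta signalling and the contractile apparatus, the difference was 1.66 for Ccn2, 1.64 for Tagln, 1.04 for Tpm1, 2.68 for Flna and 1.65 for Acta2. Among macrophage genes and chemokines, the difference was -1.32 for Ccl7, 1.11 for Mrc1, 1.59 for Fcgr3, -1.63 for Ccl2 and 3.00 for Ccl9. No healthy kidney was above background for Col3a1, Col5a2, Tagln, Ccl7, Ccl2, Xist, Scgb1a1 and Sftpc, so their kidney rise is known only as a bound. For Col5a2, Ccl7 and Ccl2 a smaller rise in kidney than in lung is thus not established. The same holds for Eln, which was above background on only 1 healthy kidney. Among genes of epithelial injury, the difference was 3.63 for Lcn2, 3.85 for Vcam1, 2.52 for Cd44 and 2.96 for Socs3. Among genes of the cytoskeleton, ribosome and lysosome, the difference was 1.56 for Arpc1b, 1.92 for Tmsb10, -0.78 for Rplp0 and -2.74 for Lgmn. Among metabolic genes, the difference was -1.01 for Acox3, -0.76 for Acadm, -3.41 for Cyp4b1, 3.79 for Aox3 and 4.18 for Cyp4a14. Aox3 was near background in kidney, which limits the fall that could be seen there. Cyp4a14 was above background on 1 fibrotic lung and no healthy lung, so a fall in lung could not have been seen. Of the markers that showed arrays standing apart, the difference was 4.16 for Xist and 7.04 for Scgb1a1. Among genes that were not common, the difference was 2.76 for Tgfb1, 4.44 for Sftpc, 7.02 for Ccl5, 5.21 for H2-DMb1, 5.08 for H2-Eb1, 4.96 for Piezo2, -5.73 for Nsdhl, -5.06 for Cyp51, -5.15 for Frrs1 and -5.84 for Slc39a8; the last 8 were chosen for their opposite changes, so for them it is a description. Groups of 2 and 3 arrays were too small for a test of single outlying arrays.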

How the results depend on the processing

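Counts moved with the scaling and the threshold. With arrays set only to a common median, the average called 5082 genes higher and 1104 lower, 4198 were common and higher and 789 lower, and 1610 higher and 131 lower passed in each organ with the same sign. In the authors' processed intensities 917 genes were common and lower and 216 of the lower ones passed in each organ. Of the common lower genes reported, 47.6% were also common and lower with a common median and 49.6% in the processed intensities. At an adjusted p under 0.01 the average called 1846 higher and 1225 lower, 944 were common and lower, 343 higher and 130 lower passed in each organ, and 636 common genes differed between organs, since fewer genes pass a stricter threshold. Leaving out each array in turn gave 1825 to 2361 common higher genes and 1170 to 1790 common lower ones, and 237 to 500 lower genes passing in each organ, the lowest without fibrotic kidney replicate 2 and the highest without fibrotic kidney replicate 1. Without fibrotic lung replicate 3 and healthy lung replicate 3, an alternative chosen after seeing the data, 2086 were common and higher and 1501 lower. The replicate block, with the mouse as a random block, gave 2291 and 1606 common genes. None of the 96 genes named by the rule reversed under the settings run. That comparison followed the average effect, or the organ difference for the genes chosen for opposite changes. Whether a gene kept the same sign in each organ, and so stayed common, was not part of it. The counts were compared by size only, so a reversal could not occur for them. Of those 96 genes, Haao, Cyp4a12a, Col1a2 and Eif2s3y missed the adjusted p of 0.01. Genes named as exceptions, such as Cxcl12, were not followed. Of the 96, Haao and Col1a2 also lost their call without fibrotic kidney replicate 2, and Col1a2 without both lung arrays (0.47; limma adjusted p = 0.0681). Except where an alternative's construction shows it, the cause was not tested. Genes above background on no array of a group have only a bound there.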
